A study of Mus musculus with 16 samples.

Results

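The 8 genes Shisal1, Uchl1, Katnal2, Fam171b, Slc15a5, Hipk2, Xylt1 and Tiam1 were examined in mouse tibialis anterior, a fast muscle of the lower hind limb. They were picked by name, out of 30037 genes in the count table, as genes whose level stayed far from wild type in mutant muscle that had received a Dnm2 oligonucleotide, and all 8 were among the 15649 genes that passed the filter on low counts. The study set a heterozygous Dnm2 mutant, Dnm2SL/+, a mouse model of autosomal dominant centronuclear myopathy, beside wild type (WT), with each genotype injected either with ASO1, an antisense oligonucleotide meant to lower Dnm2, or with a control oligonucleotide, ASO Control. All mice were male C57BL/6N and 7 weeks old, and every group had received an oligonucleotide, so no uninjected muscle was measured. There were 4 libraries from Dnm2SL/+ ASO1, 6 from Dnm2SL/+ ASO Control, 2 from WT ASO1 and 4 from WT ASO Control.

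Dnm2 encodes dynamin 2, a GTPase that pinches membranes off at sites of endocytosis and membrane remodelling, and centronuclear myopathy takes its name from nuclei that lie in the middle of the muscle fibre. An antisense oligonucleotide binds a transcript and can lead to its destruction, so the transcript it is aimed at is expected to fall. The 8 genes have no single pathway in common. Uchl1 encodes a deubiquitinating enzyme best known from neurons, Katnal2 a relative of the microtubule-severing ATPase katanin, Shisal1 and Fam171b membrane proteins of the Shisa and FAM171 families, Slc15a5 a member of the peptide carrier family SLC15, Hipk2 a nuclear protein kinase that acts on p53 and other transcription regulators, Xylt1 the xylosyltransferase that starts glycosaminoglycan chains on proteoglycans, and Tiam1 an exchange factor that activates the small GTPase RAC1.

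Levels are given as CPM, the count of a gene relative to the total of its library after scaling by the trimmed mean of M values (TMM). Totals ranged between 30148163 and 33667052 counts per library, and the raw count of any of the 8 genes ran between 8 and 1626, with 13 of 128 values under 30. Dnm2 itself was at 28.2, 35.2, 26.6 and 32.2 CPM in Dnm2SL/+ ASO1, against 46.4, 59.5, 65.1, 61.9, 61.4 and 35.2 CPM in Dnm2SL/+ ASO Control. In WT it was at 23.0 and 25.0 CPM with ASO1, against 52.8, 55.7, 45.4 and 57.2 CPM with ASO Control. The library Dnm2SL/+ ASO Control 6, at 35.2 CPM, had as much Dnm2 as the highest treated mutant, and results for which it matters are given with and without it. The summed level of 10 muscle fibre markers was 150000 to 162000 CPM in Dnm2SL/+ ASO1 and 127000 to 143000 CPM in Dnm2SL/+ ASO Control, against 168000 to 199000 CPM in WT ASO1 and 164000 to 180000 CPM in WT ASO Control, so it was high in every library and lower in the mutants, with no overlap between genotypes. Nothing in the labels says outright that each library came from its own animal, so the p-values below measure the spread between these libraries.

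RefSeq promoter windows (GRCm38.p6) were examined for 4 of the 8 genes. Katnal2 was not among them, since its chromosome was left out of this step. The 250 bases before the RefSeq start of 1 gene above and 1 gene below wild type are shown. Among the 4 genes examined, these 2 were the ones with a single start listed. Capitals mark the dinucleotide CG. The RefSeq start of Uchl1 lies inside the gene span given below, so the last bases of its stretch fall within that span.
Uchl1, chr5:66675871-66676120, plus strand: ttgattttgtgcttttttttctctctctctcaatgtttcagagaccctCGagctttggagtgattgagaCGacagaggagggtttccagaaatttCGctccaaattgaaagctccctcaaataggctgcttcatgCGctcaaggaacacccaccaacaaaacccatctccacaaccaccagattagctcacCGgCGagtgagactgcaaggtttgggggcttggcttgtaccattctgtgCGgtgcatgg
Slc15a5, chr6:138079917-138080166, minus strand: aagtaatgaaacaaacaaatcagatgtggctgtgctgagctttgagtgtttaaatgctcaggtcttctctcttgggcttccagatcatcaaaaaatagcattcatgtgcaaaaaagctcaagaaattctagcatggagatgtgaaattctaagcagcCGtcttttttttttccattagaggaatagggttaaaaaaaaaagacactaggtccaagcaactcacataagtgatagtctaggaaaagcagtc
The Uchl1 stretch held 7 CG and was 48.8% G or C, and the Slc15a5 stretch held 1 CG and was 37.2% G or C, where the median over all promoter windows was 6 CG. Of the windows of all genes, 46.3% had as many CG as Uchl1 or more, and 92.1% as many as Slc15a5 or more. Of the 2 starts listed for Hipk2, one had 43 CG, a number that 0.712% of windows reached, and the other had 1. The 2 starts of Tiam1 had 6 and 9. The 4 genes examined thus ran over nearly the whole range of CG content. The E-box CAGCTG is in 16.3% of all windows when both strands are read, the TATA box TATAAA in 13.6%, the CCAAT box in 37.4%, the RUNX motif TGTGGT in 16.8%, the AP-1 motif TGANTCA in 7.81% and the GC box GGGCGG in 35.7%. None of them was in the Uchl1 or the Slc15a5 window of 250 bases before and 50 after the start. The CG-rich Hipk2 window held 5 GC boxes and the other Hipk2 window 1 RUNX motif, while one Tiam1 window held 1 AP-1 motif and the other 1 E-box, 1 CCAAT box and 1 RUNX motif.

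The genes lie on 7 chromosomes (GRCm38). Those above wild type in the mutants are Shisal1 at chr15:84379203-84447097 on the minus strand, Uchl1 at chr5:66676091-66687234 on the plus strand, Katnal2 at chr18:76977148-77047308 on the minus strand and Fam171b at chr2:83812636-83883486 on the plus strand. Those below it are Slc15a5 at chr6:137983586-138079916, Hipk2 at chr6:38694390-38876165 and Tiam1 at chr16:89787111-90143769, all on the minus strand, and Xylt1 at chr7:117380979-117673580 on the plus strand. All are protein-coding. Their median span was 83.6 kb, against 20.9 kb over all tested genes, and the 4 genes below wild type spanned 96.3 to 357 kb, whereas 14.3% of tested genes were longer than 90 kb. Exons of Uchl1 overlap those of the antisense transcript Uchl1os. The strand setting of the counting is not given in the sources used here, so reads of the pair may not be told apart.

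The first question was how far treated mutants were from wild type. These values chose the genes and are given as a description with no test. In Dnm2SL/+ ASO1 against WT ASO Control all 8 genes passed the threshold, where 4.52% of all tested genes did (707 genes, adjusted p under 0.05), and the libraries of the 2 groups did not overlap for 8 of 8, where this held for 11.8% of tested genes. Without WT ASO Control 3 or 4, 5 of the 8 passed (225 and 241 genes in all), with Fam171b, Slc15a5 and Tiam1 missing the threshold, and without Dnm2SL/+ ASO1 2 or 4 there were 6 and 7 (194 and 189 genes). In untreated mutants, Dnm2SL/+ ASO Control against WT ASO Control, 8 of 8 passed as well, beside 32.1% of all tested genes (5021). Shisal1, Uchl1, Katnal2 and Fam171b were above wild type in both, and Slc15a5, Hipk2, Xylt1 and Tiam1 below it in both. By the size of the difference in Dnm2SL/+ ASO1, ranked among genes of the same direction, Shisal1 was 22nd, Uchl1 45th, Fam171b 46th and Katnal2 56th of the genes above wild type, while Slc15a5 was 89th, Hipk2 118th, Tiam1 124th and Xylt1 157th of the genes below it.

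Shisal1 encodes a Shisa-like membrane protein. It had 2.20, 7.82, 2.94 and 4.59 CPM in Dnm2SL/+ ASO1 and 7.16, 10.4, 6.95, 7.76, 7.39 and 3.87 CPM in Dnm2SL/+ ASO Control, against 0.637 and 0.288 CPM in WT ASO1 and 0.352, 0.684, 0.379 and 0.807 CPM in WT ASO Control. Treated and untreated mutants overlapped, since replicate 2 of the treated mutants was above 5 of the 6 untreated ones, and every mutant library was above every WT library. The log2 fold change of Dnm2SL/+ ASO1 over WT ASO Control was 2.98 (95% interval 2.07 to 3.89), a 7.89-fold difference and the largest of the 8, and that of Dnm2SL/+ ASO Control over WT ASO Control was 3.70 (2.83 to 4.58). Means were 4.39 ± 2.49 CPM in Dnm2SL/+ ASO1, 7.25 ± 2.08 CPM in Dnm2SL/+ ASO Control, 0.462 ± 0.247 CPM in WT ASO1 and 0.556 ± 0.225 CPM in WT ASO Control (SD, n = 4, 6, 2 and 4), and the WT groups did not differ beyond their spread.

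Uchl1 encodes a ubiquitin carboxy-terminal hydrolase. It had 8.58, 6.23, 16.5 and 6.88 CPM in Dnm2SL/+ ASO1 and 38.6, 44.5, 30.4, 45.9, 40.0 and 25.9 CPM in Dnm2SL/+ ASO Control, against 2.48 and 2.23 CPM in WT ASO1 and 3.87, 1.03, 1.89 and 1.36 CPM in WT ASO Control. Treated mutants lay between wild type and untreated mutants and overlapped with neither, and replicate 3 was the highest of the treated mutants. Dnm2SL/+ ASO1 was 4.66-fold over WT ASO Control (log2 2.22, 95% interval 1.43 to 3.01), and Dnm2SL/+ ASO Control was 18.3-fold over it (log2 4.19, 3.41 to 4.98).

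Fam171b encodes a single-pass membrane protein. It had 7.04, 3.56, 10.6 and 2.47 CPM in Dnm2SL/+ ASO1 and 26.0, 34.1, 28.0, 37.0, 31.8 and 12.8 CPM in Dnm2SL/+ ASO Control, against 0.743 and 0.899 CPM in WT ASO1 and 2.11, 0.809, 1.03 and 1.10 CPM in WT ASO Control. The steps were those of Uchl1, but the lowest treated mutant, replicate 4, came close to the highest WT library, and the lowest untreated mutant, replicate 6, to the highest treated one. Dnm2SL/+ ASO1 was again 4.66-fold over WT ASO Control (log2 2.22, 95% interval 1.26 to 3.18), while Dnm2SL/+ ASO Control was 22.3-fold over it (log2 4.48, 3.53 to 5.42), the largest genotype difference of the 8.

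Katnal2 encodes a katanin-like ATPase, known in mice for its part in sperm formation. It had 3.65, 5.58, 6.41 and 3.99 CPM in Dnm2SL/+ ASO1 and 7.53, 9.42, 8.78, 11.4, 9.91 and 5.91 CPM in Dnm2SL/+ ASO Control, against 0.389 and 0.431 CPM in WT ASO1 and 1.15, 0.560, 2.17 and 0.550 CPM in WT ASO Control. Only replicate 6 of the untreated mutants fell among the treated ones, and both WT ASO1 libraries were below all 4 WT ASO Control libraries. Dnm2SL/+ ASO1 was 4.42-fold over WT ASO Control (log2 2.14, 95% interval 1.41 to 2.88), and Dnm2SL/+ ASO Control was 7.95-fold over it (log2 2.99, 2.28 to 3.70).

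Slc15a5 belongs to a family of proton-coupled carriers of short peptides. It had 4.01, 2.61, 4.94 and 3.11 CPM in Dnm2SL/+ ASO1 and 1.50, 1.88, 0.973, 0.903, 1.46 and 4.80 CPM in Dnm2SL/+ ASO Control, against 12.3 and 16.6 CPM in WT ASO1 and 8.26, 11.7, 14.8 and 17.4 CPM in WT ASO Control. Among the untreated mutants 5 were below every treated mutant and replicate 6 was above 3 of the 4. Dnm2SL/+ ASO1 stood at 28.2% of WT ASO Control (log2 -1.83, 95% interval -2.70 to -0.96), and Dnm2SL/+ ASO Control at 14.7% of it (log2 -2.76, -3.55 to -1.97). Means were 3.67 ± 1.03 CPM in Dnm2SL/+ ASO1, 1.92 ± 1.46 CPM in Dnm2SL/+ ASO Control, 14.4 ± 3.01 CPM in WT ASO1 and 13.0 ± 3.95 CPM in WT ASO Control (SD, n = 4, 6, 2 and 4), with the WT groups overlapping.

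Tiam1, the exchange factor for RAC1, had 1.74, 2.38, 3.60 and 4.66 CPM in Dnm2SL/+ ASO1 and 1.24, 1.68, 1.49, 1.33, 1.43 and 3.43 CPM in Dnm2SL/+ ASO Control, against 9.48 and 5.68 CPM in WT ASO1 and 6.79, 9.96, 6.82 and 8.55 CPM in WT ASO Control. All 4 treated mutants were above 5 of the 6 untreated ones, and replicate 6 lay in the treated range. Dnm2SL/+ ASO1 stood at 38.6% of WT ASO Control (log2 -1.37, 95% interval -2.07 to -0.68), and Dnm2SL/+ ASO Control at 22.0% of it (log2 -2.18, -2.81 to -1.55). The 4 means, for Dnm2SL/+ ASO1, Dnm2SL/+ ASO Control, WT ASO1 and WT ASO Control, were 3.09 ± 1.30, 1.77 ± 0.83, 7.58 ± 2.69 and 8.03 ± 1.53 CPM (SD, n = 4, 6, 2 and 4), and the WT groups did not differ beyond their spread.

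Hipk2, the homeodomain-interacting kinase, had 6.51, 4.29, 9.88 and 5.93 CPM in Dnm2SL/+ ASO1 and 8.86, 10.3, 5.41, 8.83, 7.36 and 7.28 CPM in Dnm2SL/+ ASO Control, against 13.6 and 8.16 CPM in WT ASO1 and 21.0, 11.4, 16.3 and 22.4 CPM in WT ASO Control. Treated and untreated mutants covered overlapping ranges, and WT ASO1 replicate 2 was inside both. Dnm2SL/+ ASO1 stood at 37.4% of WT ASO Control (log2 -1.42, 95% interval -1.98 to -0.85), and Dnm2SL/+ ASO Control at 45.1% of it (log2 -1.15, -1.65 to -0.65). Group means were 6.65 ± 2.35 CPM in Dnm2SL/+ ASO1, 8.01 ± 1.70 CPM in Dnm2SL/+ ASO Control, 10.9 ± 3.84 CPM in WT ASO1 and 17.8 ± 5.00 CPM in WT ASO Control (SD, n = 4, 6, 2 and 4).

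Xylt1, which transfers the first sugar of a glycosaminoglycan chain, had 2.01, 3.60, 4.81 and 3.99 CPM in Dnm2SL/+ ASO1 and 3.14, 4.16, 4.32, 3.53, 3.35 and 3.55 CPM in Dnm2SL/+ ASO Control, against 6.79 and 3.88 CPM in WT ASO1 and 8.84, 9.65, 6.64 and 8.47 CPM in WT ASO Control. The untreated mutants lay within the range of the treated ones, and 1 of the 2 WT ASO1 libraries was down among the mutants. Dnm2SL/+ ASO1 stood at 42.9% of WT ASO Control (log2 -1.22, 95% interval -1.70 to -0.75), and Dnm2SL/+ ASO Control at 43.8% of it (log2 -1.19, -1.61 to -0.77). The mean was 3.60 ± 1.18 CPM in Dnm2SL/+ ASO1 and 3.68 ± 0.465 CPM in Dnm2SL/+ ASO Control, against 5.34 ± 2.06 CPM in WT ASO1 and 8.40 ± 1.27 CPM in WT ASO Control (SD, n = 4, 6, 2 and 4).

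**Figure D1:**
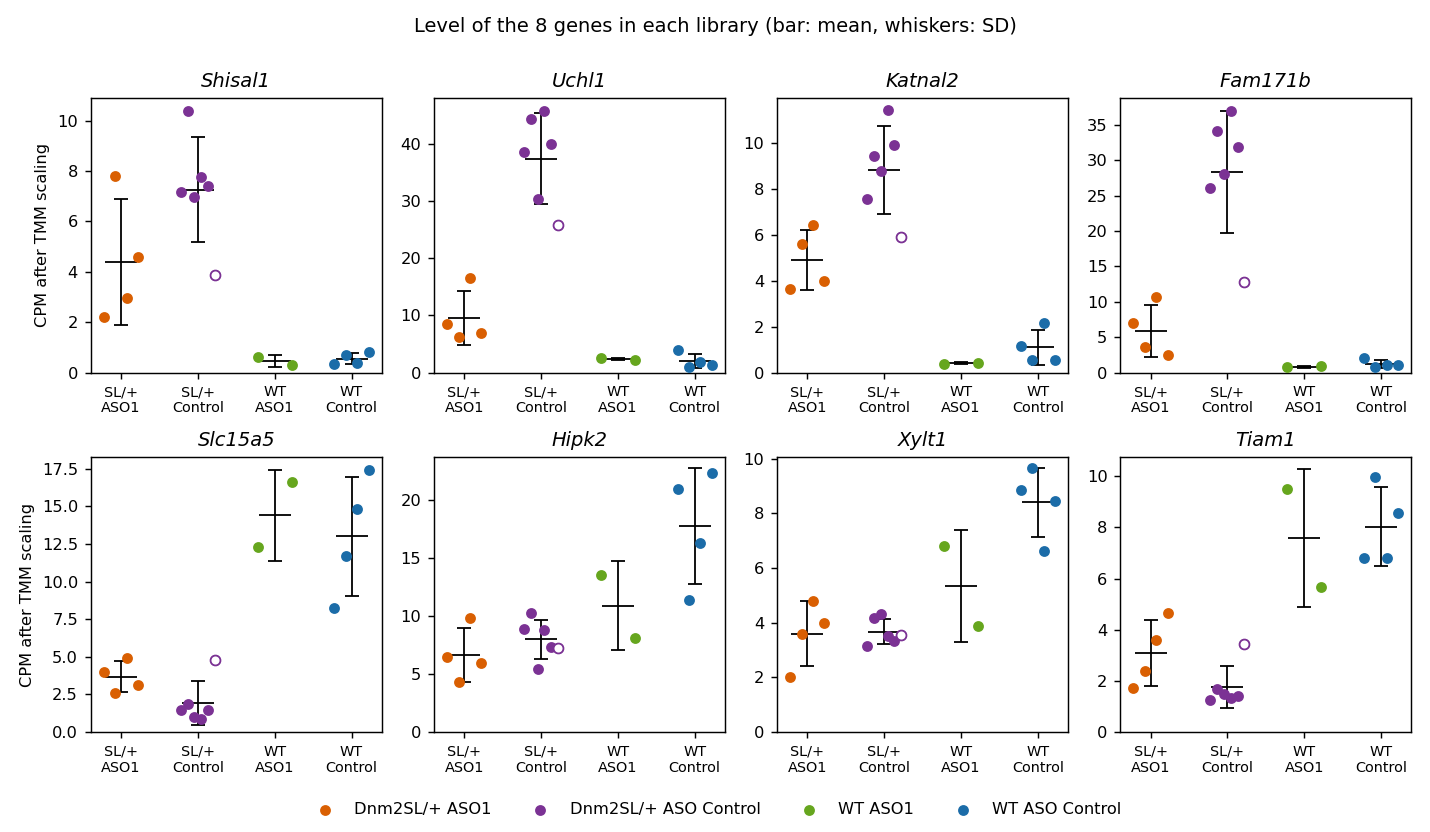
Level of each of the 8 genes (CPM after TMM scaling, linear axis starting at 0) in the 16 libraries, 1 point a library, with the group mean as a bar and the SD as whiskers. The open point is Dnm2SL/+ ASO Control 6. The 4 genes of the upper row are high in the mutants and the 4 of the lower row low, and all Dnm2SL/+ ASO1 points are apart from the WT ASO Control points.

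The next question was what ASO1 did to these genes within the mutants. This comparison shares the treated mutants with the one that chose the genes, and choosing genes that stayed far from wild type favours small effects here. By edgeR's quasi-likelihood test with Benjamini-Hochberg adjustment over all 15649 genes, 2 of the 8 passed the threshold, where 15.0% of all tested genes did (2351). Both fell: Uchl1 to 9.55 ± 4.75 CPM in Dnm2SL/+ ASO1, against 37.5 ± 7.89 CPM in Dnm2SL/+ ASO Control (SD, n = 4 and 6; log2 fold change -1.97, SE 0.32, adjusted p = 0.001), and Fam171b to 5.92 ± 3.68 CPM in Dnm2SL/+ ASO1, against 28.3 ± 8.58 CPM in Dnm2SL/+ ASO Control (-2.26, SE 0.38, adjusted p = 0.0013). They were also the 2 genes whose treated and untreated mutants did not overlap, as was the case for 11.3% of tested genes.

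The other 6 did not pass. Katnal2 had 4.91 ± 1.31 CPM in Dnm2SL/+ ASO1 and 8.82 ± 1.91 CPM in Dnm2SL/+ ASO Control (SD, n = 4 and 6; log2 -0.85, SE 0.28, adjusted p = 0.057 by the same edgeR test). The log2 differences were -0.72 (SE 0.33, adjusted p = 0.15) for Shisal1, 0.93 (SE 0.39, adjusted p = 0.12) for Slc15a5 and 0.81 (SE 0.31, adjusted p = 0.089) for Tiam1. For Hipk2 it was -0.27, with a 95% interval of -0.79 to 0.25, and for Xylt1 -0.03, with an interval of -0.47 to 0.41. Both point estimates thus lay on the side away from wild type, and both intervals reached to the other side. Without Dnm2SL/+ ASO Control 6, the count was 5 of 8: Katnal2 (-0.93, adjusted p = 0.036), Slc15a5 (1.45, adjusted p = 0.0019) and Tiam1 (1.11, adjusted p = 0.0078) passed as well, each towards wild type. Shisal1 passed without Dnm2SL/+ ASO1 2, at a log2 fold change of -1.16 (adjusted p = 0.025), and Tiam1 without Dnm2SL/+ ASO1 1, at 1.00 (adjusted p = 0.048). Katnal2 also passed when WT ASO Control 2, 3 or 4 was left out, each at -0.85 (adjusted p = 0.043, 0.018 and 0.045).

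**Figure D2:**
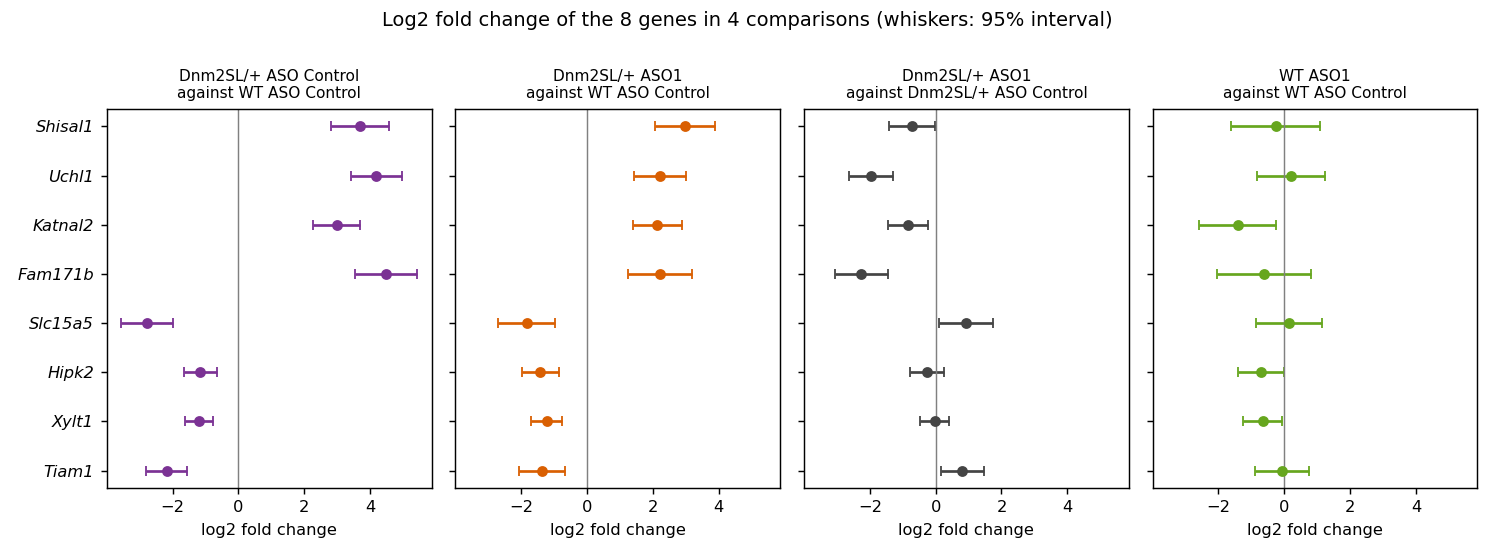
Log2 fold change of the 8 genes (horizontal axis) with 95% intervals in 4 comparisons, 1 panel each. The first 2 panels hold the comparisons that chose the genes. In the third, Uchl1 and Fam171b lie at -1.97 and -2.26 and Hipk2 and Xylt1 at -0.27 and -0.03, and in the fourth, the effect of ASO1 in WT, Katnal2 lies at -1.42 and none of the 8 passed the threshold.

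The share of the genotype difference that ASO1 reversed was the distance between untreated and treated mutants over that between untreated mutants and WT ASO Control, so that 0% is no change and 100% the level of WT ASO Control. It is a description, since the choice of genes favours low shares. On mean log2 CPM it was 53.9% for Fam171b (95% Fieller interval 34.8 to 74.3%), 47.6% for Uchl1 (31.0 to 64.6%), 38.1% for Slc15a5 (8.59 to 67.2%), 35.3% for Tiam1 (4.22 to 65.4%), 27.2% for Katnal2 (3.54 to 49.3%) and 23.0% for Shisal1 (-0.472 to 44.5%). It was -7.43% for Xylt1 (-66.6 to 31.3%) and -26.7% for Hipk2 (-125 to 22.0%), where a value below 0 is a step away from wild type. The intervals of Fam171b and Uchl1 overlapped those of the 4 genes ranked after them, so the order among the 6 positive shares is not settled by these libraries.

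The median share of the 8 was 31.3%, and it came to 41.4%, 21.5%, 31.7% and 33.4% when each treated mutant was taken alone (SD 8.20). Over all 5021 genes called in Dnm2SL/+ ASO Control against WT ASO Control the median share was 55.0%, and over the 1202 of these with an absolute log2 fold change above 1 it was 59.9%, with quartiles of 41.6 and 75.8%. Of those 1202 genes 10 had a lower share than Hipk2, 31 a lower share than Xylt1, 133 than Shisal1, 169 than Katnal2, 236 than Tiam1, 257 than Slc15a5, 376 than Uchl1 and 484 than Fam171b. Chosen as genes far from wild type, Uchl1 and Fam171b thus lay between the quartiles of the strongly changed genes, and their distance from wild type after treatment stood beside the genotype differences of 18.3-fold and 22.3-fold given above.

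The treated mutants did not rank alike across the genes. Replicate 3 had the lowest share for Uchl1 (26.7%), Katnal2 (13.7%) and Fam171b (30.1%), and the highest for Slc15a5 (54.1%), Hipk2 (29.2%) and Xylt1 (33.3%). For Shisal1 the shares of replicates 1 to 4 were 45.6, -4.57, 34.3 and 16.6%, and replicate 2 was the one that had not moved. For Tiam1 they were 3.32, 22.8, 49.3 and 65.8%, from almost no reversal in replicate 1 to most of it in replicate 4. The SD over the 4 treated mutants was 12.3 to 27.7 percentage points for 6 of the genes, and 43.6 and 45.4 for Hipk2 and Xylt1, whose genotype differences, the denominators, were the smallest.

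The share also depends on the scale. On mean CPM without the log it was 82.8% for Fam171b, 78.8% for Uchl1, 50.7% for Katnal2 and 42.7% for Shisal1, above the log2 values, and 21.2% for Tiam1 and 15.7% for Slc15a5, below them. Hipk2 (-13.9%) and Xylt1 (-1.59%) stayed below 0 on both. By CPM, the treated mutants had lost most of the excess of Uchl1 and Fam171b, while a several-fold difference from wild type was left.

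**Figure D3:**
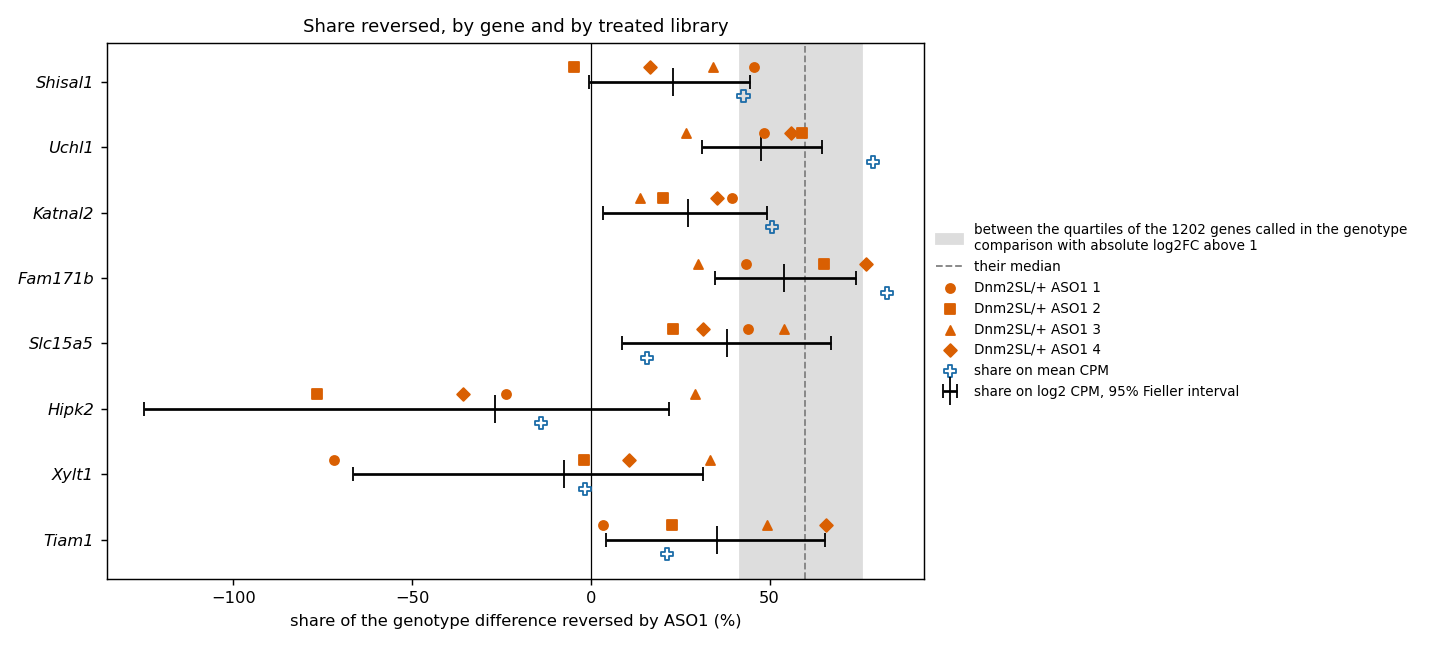
Share of the genotype difference reversed by ASO1 (%, horizontal axis) for each of the 8 genes, with the 95% Fieller interval in black, the 4 treated mutants as orange points above it and the share on mean CPM as a blue cross below it. The grey band and dashed line are the quartiles and the median of the 1202 genes called in Dnm2SL/+ ASO Control against WT ASO Control with an absolute log2 fold change above 1 (41.6, 75.8 and 59.9%). Hipk2 and Xylt1 lie below 0, and Uchl1 and Fam171b inside the band.

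WT muscle given ASO1 was not part of the choice of genes. Against WT ASO Control, which was, 0 of the 8 passed by edgeR's quasi-likelihood test, as did 0% of all tested genes, where 1605 had an unadjusted p under 0.05, DESeq2 called 97 and limma voom called 0, and no member under either. Katnal2 had the largest difference, at 0.410 ± 0.0299 CPM in WT ASO1 and 1.11 ± 0.761 CPM in WT ASO Control (SD, n = 2 and 4; log2 -1.42, SE 0.55, adjusted p = 0.41 by edgeR), with 11 and 12 raw counts in WT ASO1. Hipk2 (-0.71, SE 0.33, adjusted p = 0.48) and Xylt1 (-0.65, SE 0.28, adjusted p = 0.44) also had point estimates below 0, the side on which the mutants lay. Shisal1 (-0.25), Uchl1 (0.20), Fam171b (-0.62), Slc15a5 (0.15) and Tiam1 (-0.08) had adjusted p of 0.80 to 0.97. With 2 WT ASO1 libraries the intervals were wide, as that of Fam171b, -2.05 to 0.80. Dnm2, which ASO1 is meant to lower, did not pass either (log2 -1.14, SE 0.20, adjusted p = 0.22 by edgeR), though its groups did not overlap. A gene that did not pass here is thus not shown to be unchanged.

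The mutants were also set against WT ASO1, libraries that did not choose the genes. In Dnm2SL/+ ASO1 against WT ASO1, where both genotypes had received the same oligonucleotide, 5 of the 8 passed, against 3.51% of tested genes (549). By edgeR's quasi-likelihood test the log2 fold changes were 3.57 for Katnal2 (SE 0.53, adjusted p = 0.0091), 3.23 for Shisal1 (SE 0.58, adjusted p = 0.016), 2.84 for Fam171b (SE 0.63, adjusted p = 0.027), 2.02 for Uchl1 (SE 0.48, adjusted p = 0.033) and -1.98 for Slc15a5 (SE 0.47, adjusted p = 0.033). Tiam1 was at -1.29 (SE 0.38, adjusted p = 0.070) and passed without Dnm2SL/+ ASO Control 6 (-1.28, adjusted p = 0.031), while Hipk2 (-0.71, adjusted p = 0.22) and Xylt1 (-0.57, adjusted p = 0.25) did not pass. These calls rest on few libraries: without WT ASO1 1 none of the 8 passed, without WT ASO1 2 only Katnal2 did, and without Dnm2SL/+ ASO1 4 there were 3. Slc15a5 also missed the threshold without Dnm2SL/+ ASO1 1 (adjusted p = 0.051) or 2 (adjusted p = 0.075). The treated mutants were among the libraries that chose the genes, which favours large differences here.

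Dnm2SL/+ ASO Control against WT ASO1 shares no library with Dnm2SL/+ ASO1 against WT ASO Control. The untreated mutants did enter the genotype comparison above, which also chose the genes, and this favours large differences here. By edgeR's quasi-likelihood test 6 of the 8 passed, against 24.1% of tested genes (3766), and the same number passed whichever single library was left out. The log2 fold changes were 5.10 for Fam171b (SE 0.65, adjusted p = 9.5e-05), 4.41 for Katnal2 (SE 0.52, adjusted p = 5.8e-05), 3.99 for Uchl1 (SE 0.50, adjusted p = 8.9e-05) and 3.96 for Shisal1 (SE 0.58, adjusted p = 0.00023). They were -2.91 for Slc15a5 (SE 0.43, adjusted p = 0.00024) and -2.10 for Tiam1 (SE 0.35, adjusted p = 0.00059). Hipk2 (-0.44, 95% interval -1.07 to 0.19, adjusted p = 0.31) and Xylt1 (-0.54, 95% interval -1.07 to 0.00, adjusted p = 0.14) did not pass against these WT libraries, of which replicate 1 lay in the range of WT ASO Control and replicate 2 in that of the mutants for both genes.

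Whether ASO1 acted differently in the mutants and in WT was tested as an interaction. It was past the threshold for 0 of the 8 by edgeR's quasi-likelihood test, where 2.82% of tested genes passed (442). Uchl1 came closest, with an ASO1 effect 2.18 log2 units lower in the mutants (interaction -2.18, SE 0.57, adjusted p = 0.053), and passed without Dnm2SL/+ ASO Control 6 (-2.27, adjusted p = 0.04), without Dnm2SL/+ ASO1 3 (-2.58, adjusted p = 0.019), without WT ASO Control 1 (-2.70, adjusted p = 0.013) and with DESeq2. Fam171b was at -1.63 (SE 0.78, adjusted p = 0.26), and for the other 6 the adjusted p was 0.34 to 0.77. The fall of Uchl1 and Fam171b with ASO1 in the mutants is therefore not shown to differ from the effect in WT.

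The 8 genes were compared with each other over the 16 libraries. Pearson's r of log2 CPM was 0.86 to 0.98 for the 6 pairs of genes above wild type and 0.62 to 0.92 for the 6 pairs below it, and -0.92 to -0.46 for the 16 pairs of opposite direction. Such values follow from groups that differ, since the points share their groups. With the group means taken off, r was 0.83 between Uchl1 and Fam171b, 0.69 between Uchl1 and Hipk2, 0.61 between Xylt1 and Tiam1, 0.57 between Uchl1 and Katnal2, 0.53 between Fam171b and Hipk2 and 0.52 between Slc15a5 and Tiam1, and the lowest was -0.57 between Fam171b and Tiam1. Shisal1 was the one apart, with -0.32 to Uchl1, -0.22 to Fam171b and -0.11 to Katnal2, the other 3 genes above wild type. These correlations are descriptions over 16 points that share libraries and scaling.

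**Figure D4:**
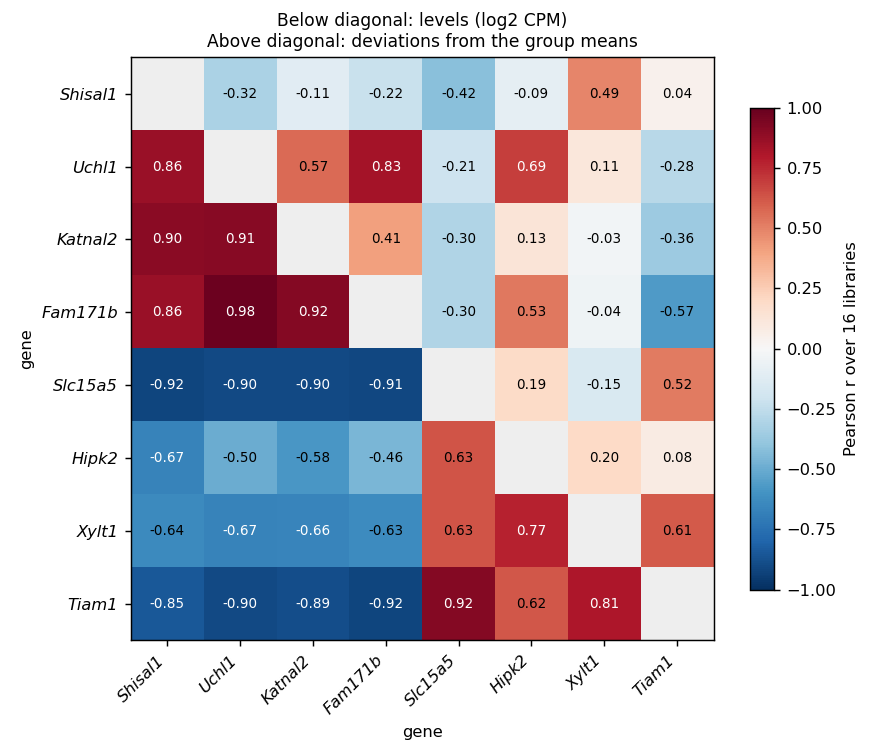
Pearson's r between the 8 genes over 16 libraries, below the diagonal for the levels (log2 CPM) and above it for the deviations from the group means. Levels separate the 4 genes above wild type from the 4 below it, and among the deviations the highest r is the 0.83 of Uchl1 and Fam171b.

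The genes most like each member in level were also listed, over 10538 tested genes whose mean log2 CPM was 1 or more. Genes with a provisional symbol and mitochondrially encoded genes were left out of this list. Uchl1 was closest to Pam, an enzyme that amidates secreted peptides (r = 0.99), and to Fam171b and the calcium-dependent membrane-binding protein gene Cpne2 (0.98 each), and Fam171b to Cpne2, the matrix protein gene Cilp and Uchl1 (0.98 each). Cilp had 147 CPM on average in Dnm2SL/+ ASO1, 892 CPM in Dnm2SL/+ ASO Control, 13.3 CPM in WT ASO1 and 29.0 CPM in WT ASO Control. Its order of mutant groups was that of Fam171b, which follows from picking it by its r with Fam171b. Shisal1 was closest to the imprinted non-coding RNA H19 (0.96), Gprc5b and Stom (0.95 each), and Katnal2 to Armh4 (0.95), Itga5 and Plekhh2 (0.94 each). Slc15a5 was closest to Lifr, Actr3b and Yars (0.98 each), Tiam1 to Mapk14 and Slc38a4 (0.97 each) and Adi1 (0.96), Hipk2 to Polr1a (0.91), Ankrd11 and Med13l (0.89 each), and Xylt1 to Dhdh (0.90), Map3k4 and Cpeb1 (0.88 each). H19 was at a log2 of -0.27 with ASO1 in the mutants (SE 0.20) and at 1.29 for Dnm2SL/+ ASO1 over WT ASO Control (SE 0.22). Because H19 was picked by its r with Shisal1 in these libraries, a pattern like that of Shisal1 follows from the choice. These values are a description with no test.

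Within groups most of the closest genes were others, with Pam, Lifr, Actr3b and Polr1a listed on both measures. With the group means taken off, Katnal2 went with Xirp1, which encodes an actin-binding protein of muscle (r = 0.95), Atf3 (0.88) and Flnc (0.87), and Uchl1 with Anxa7 and Map1a (0.90 each) and Pam (0.88). Fam171b went with Map4 (0.89), Fst and Yipf7 (0.87 each), and Shisal1 with Decr2 (0.90), Msantd3 and E2f2 (0.86 each). Slc15a5 kept Lifr (0.92) and Actr3b (0.89), with Mgst1 (0.91), and Hipk2 kept Polr1a (0.84), after Ubn1 (0.89) and Fam120c (0.88). The genes close to Xylt1 included Slc8a1 (0.87) and Zswim7 (0.84), and Tiam1 went with Me1 (0.89), Rxrg (0.88) and Plcd4 (0.87). All were picked by this same r out of 10538 genes, so high values follow from the choice. They too are a description with no test.

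The relatives and partners of the 8 genes were counted in 10 lists with 111 tested genes, the members left out. The relatives named here and below were those with the smallest p of their list in Dnm2SL/+ ASO Control against WT ASO Control. That choice favours large differences in this comparison. It also favours a step back with ASO1 in the mutants, which shares the untreated mutants. In Dnm2SL/+ ASO1 against WT ASO Control 3 of the 111 passed (2.70%, beside 4.52% of all genes), none upward. They were Hipk3, a paralog of Hipk2 (log2 -0.39, adjusted p = 0.020 by edgeR), Fam20b, the kinase that phosphorylates the xylose placed by xylosyltransferases (-0.30, adjusted p = 0.029), and Arhgef6, an exchange factor for RAC1 and CDC42 (-0.32, adjusted p = 0.043). In Dnm2SL/+ ASO Control against WT ASO Control 22 of the 111 rose and 16 fell (34.2%, beside 32.1%), and with ASO1 in the mutants 5 rose and 11 fell (14.4%, beside 15.0%). The shares of relatives that passed were thus near those of all genes.

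Near Uchl1, none of 10 ubiquitin hydrolases and recycling genes passed in Dnm2SL/+ ASO1 against WT ASO Control (median log2 -0.06, against 0.012 over all genes), and Bap1, the nuclear hydrolase of the same family, was at -0.16 (adjusted p = 0.11 by edgeR). Bap1 fell in Dnm2SL/+ ASO Control against WT ASO Control (-0.33, adjusted p = 0.00014) and rose with ASO1 in the mutants (0.17, adjusted p = 0.029). Near Katnal2, none of 10 severing ATPases and regulators passed (median -0.09), and Vps4a, an ATPase of the ESCRT pathway, was at -0.27 (adjusted p = 0.00074) in Dnm2SL/+ ASO Control against WT ASO Control. Of the Shisa family 4 of 10 were tested and none passed after treatment. Shisa4 rose in the untreated mutants against WT ASO Control (0.62, adjusted p = 0.00075) and fell with ASO1 (-0.50, adjusted p = 0.0086). Fam171a2, a paralog of Fam171b, rose in Dnm2SL/+ ASO Control against WT ASO Control (0.98, adjusted p = 0.0077) and was at 0.87 (adjusted p = 0.080) in Dnm2SL/+ ASO1 against WT ASO Control. None of 3 tested SLC15 carriers passed in either comparison.

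Among the relatives of Tiam1, its paralog Tiam2 moved the other way. Tiam2 had 7.76 ± 3.60 CPM in Dnm2SL/+ ASO1 and 25.1 ± 9.24 CPM in Dnm2SL/+ ASO Control, against 3.46 ± 0.695 CPM in WT ASO1 and 4.10 ± 2.72 CPM in WT ASO Control (SD, n = 4, 6, 2 and 4). By edgeR it rose by a log2 of 2.61 in Dnm2SL/+ ASO Control over WT ASO Control (adjusted p = 0.00043) and fell by 1.69 with ASO1 in the mutants (adjusted p = 0.014), and in Dnm2SL/+ ASO1 against WT ASO Control it was at 0.92 (adjusted p = 0.27). The counts of the next 3 lists stand beside the 32.1% of all genes called in the same comparison. Of 20 RAC exchange factors 2 rose and 7 fell in Dnm2SL/+ ASO Control against WT ASO Control (median log2 0.01, against 0.002 over all genes), and of 15 RAC GTPases and effectors 4 rose and none fell (median 0.20). Of 16 tested proteoglycan core proteins, which carry the chains that Xylt1 starts, 6 rose and none fell (median 0.34). Bgn, which encodes biglycan, was at 86.2 ± 20.7 CPM in Dnm2SL/+ ASO1 and 170 ± 22.5 CPM in Dnm2SL/+ ASO Control, against 67.5 ± 26.8 CPM in WT ASO Control (SD, n = 4, 6 and 4; log2 1.33, adjusted p = 0.00017 in Dnm2SL/+ ASO Control over WT ASO Control, and -0.98, adjusted p = 0.0047 with ASO1 in the mutants). In the HIPK list Siah2 (0.84, adjusted p = 0.0011) and Trp53 (0.55, adjusted p = 0.0021) rose in Dnm2SL/+ ASO Control over WT ASO Control and fell with ASO1 (-0.67, adjusted p = 0.012, and -0.55, adjusted p = 0.0053).

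Markers of other cell types were counted in the same way. Their counts stand beside the 4.52% of all genes called in Dnm2SL/+ ASO1 against WT ASO Control and the 32.1% called in Dnm2SL/+ ASO Control against WT ASO Control. The macrophage counts were near these shares. Of 15 macrophage markers 1 rose in the first comparison and 5 in the second, and their sum was 47.2 to 108 CPM in Dnm2SL/+ ASO1 and 70.9 to 144 CPM in Dnm2SL/+ ASO Control, against 37.7 to 89.3 CPM in WT ASO Control. Of 11 markers of fibro-adipogenic progenitors, the connective tissue cells of muscle, 1 and 5 rose, and the sum was 1340 to 2670 CPM in Dnm2SL/+ ASO1 and 2620 to 3450 CPM in Dnm2SL/+ ASO Control, against 1090 to 2760 CPM in WT ASO Control. None of these markers fell in either comparison. Of 8 tested markers of proliferating cells none passed in the first comparison and 6 rose in the second, and the sum was 18.9 to 25.6 CPM in Dnm2SL/+ ASO1 and 20.3 to 34.9 CPM in Dnm2SL/+ ASO Control, against 15.0 to 19.2 CPM in WT ASO Control, with no overlap between the last groups.

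Of the 10 muscle fibre markers whose sums are given above, 1 fell in Dnm2SL/+ ASO1 against WT ASO Control, while 7 fell and 1 rose in Dnm2SL/+ ASO Control against WT ASO Control (median log2 -0.37). Of 9 satellite cell markers 2 fell in the first comparison (median -0.34), and 4 fell and 1 rose in the second (median -0.30). Those that fell in the second were Pax7, Myf5, Calcr and Chrdl2. The one that rose was the laminin receptor gene Itga7, at 128 to 141 CPM in Dnm2SL/+ ASO1 and 163 to 226 CPM in Dnm2SL/+ ASO Control, against 96.6 to 134 CPM in WT ASO Control. The sum of the list, in which Itga7 has the highest level, was 207 to 246 CPM in Dnm2SL/+ ASO1 and 272 to 349 CPM in Dnm2SL/+ ASO Control, against 213 to 258 CPM in WT ASO Control, and so ran against the markers that fell. Of 11 endothelial markers 1 rose in the first comparison and 1 fell in the second, with a sum of 686 to 1020 CPM in Dnm2SL/+ ASO1 and 523 to 671 CPM in Dnm2SL/+ ASO Control, against 658 to 809 CPM in WT ASO Control. With ASO1 in the mutants 6 of the 11 rose and none fell (median log2 0.45), where 15.0% of all genes were called. Of 9 adipocyte markers 1 fell in the first comparison (median -0.09) and 2 in the second (median -0.15). Of these, Car3, a carbonic anhydrase that muscle fibres also make, was at 686 to 1210 CPM in Dnm2SL/+ ASO1 and 806 to 1390 CPM in Dnm2SL/+ ASO Control, against 2030 to 3830 CPM in WT ASO Control, and the other 8 overlapped between the mutants and WT ASO Control.

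For neurons, where Uchl1 is best known, 12 of 14 markers were in the table and 4 were tested, of which none passed in Dnm2SL/+ ASO1 against WT ASO Control and 1, Prph, rose in Dnm2SL/+ ASO Control against it (log2 1.81, adjusted p = 0.045 by edgeR). The summed level of the list was 4.78 to 6.45 CPM in Dnm2SL/+ ASO1 and 5.73 to 8.29 CPM in Dnm2SL/+ ASO Control, against 4.99 to 6.76 CPM in WT ASO Control. Stmn2 and Map2 were at 1.28 to 2.92 CPM in every library, while Snap25, Syt1 and Nefl did not exceed 0.103 CPM in any. Of 10 Schwann cell markers none passed in either comparison. In bulk muscle fewer cells of a type and less RNA per cell cannot be told apart, and the part of any of these marker lists in the levels of the 8 genes was not tested.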

How the data were processed

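Per the labels, TRI Reagent was used for RNA extraction and a TruSeq stranded mRNA kit for the libraries of tibialis anterior. The submitters' processing notes name cutadapt 1.10, Bowtie2 2.2.8, STAR 2.5.3a, HTSeq 0.6.1p1 and GRCm38. The annotation release is not given in the sources used here. The authors deposited raw counts per gene, with no normalization, for 16 libraries. WT ASO Control 4 carries a label the submitters corrected later, and WT ASO1 had 2 libraries although the series text speaks of more.

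IDs were matched to symbols with GENCODE M21. Genes were kept by filterByExpr (15649 of 30037), scaled by TMM, and fitted with edgeR 4.0.16 in R 4.3.3 (quasi-likelihood test, a mean per group over all 16 libraries, which leaves 12 residual degrees of freedom). The threshold for a call was 0.05 on the Benjamini-Hochberg adjusted p. SE is the absolute log2 fold change over the root of F, and intervals are 95%. For shares, log2 CPM had a prior count of 2. DESeq2 1.42.0 and limma 3.58.1 voom were alternatives, with other scalings, filters, a replicate block and libraries left out in turn. The test was run on simulated data for ASO1 in each genotype and for the mutants against WT ASO1. Of 4-fold changes 95.5 to 98.5% were recovered, and of 1.5-fold changes 25.4 to 70.1%. Genes with a low mean level were not changed in it. The interaction and the comparisons that chose the genes were not simulated. The members, the gene lists and the rule for naming genes (the members, the 3 genes most like each and the 3 list genes with the smallest p in Dnm2SL/+ ASO Control against WT ASO Control) were chosen with earlier results of these data known. Xirp1, Cilp, H19 and Tiam2 were singled out among them after their values were seen. One gene that the naming rule selects is not reported here. No library was a copy of another, since the chi-squared per degree of freedom was 10.7 to 211 over 120 pairs.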

Additional observations from a re-analysis of the deposited data

Results flagged for a closer look

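Among 24 sets of at least 4 libraries, 2 held a library far from the rest, where chance gives about 1 in 20. Both were Dnm2SL/+ ASO Control 6. Slc15a5 was at 4.80 CPM in it, the highest of the 6 untreated mutants, where the next was at 1.88 CPM, a gap of 0.75 of the whole range. Tiam1 was at 3.43 CPM in it, where the next was at 1.68 CPM, a gap of 0.803 of the range. In both genes this library was nearer to WT ASO Control than the other untreated mutants, and it was also the lowest of them for Shisal1, Uchl1, Katnal2 and Fam171b, at 3.87, 25.9, 5.91 and 12.8 CPM. Its Dnm2 was at 35.2 CPM, the lowest of the 6. The part of its low Dnm2 in these values was not tested. Without it the share reversed was 44.3% for Slc15a5 and 41.1% for Tiam1, and the median over the 8 genes 35.3%.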

How the results depend on the processing

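Member values in the 7 comparisons held their direction and side of the threshold in 525 of 552 cases under settings that kept every library and in 850 of 896 with 1 library left out. The exception in direction with every library was Tiam1 in WT ASO1 against WT ASO Control, at 0.07 with the replicate block. Same-numbered libraries of different groups did not deviate together (r -0.16 to 0.25 over 18 pairs, 2 over 0.1), so the numbers were not taken as pairs. With the replicate block 446 genes were called in Dnm2SL/+ ASO1 against WT ASO Control, 123 in Dnm2SL/+ ASO1 against WT ASO1 (3 members) and 115 for the interaction, and 4 members with ASO1 in the mutants.

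Requiring an absolute log2 fold change above 1 left 120 genes in Dnm2SL/+ ASO1 and 1202 in Dnm2SL/+ ASO Control against WT ASO Control, 493 with ASO1 in the mutants, 116 and 1171 in these groups against WT ASO1 and 124 for the interaction. DESeq2 called 1281 in Dnm2SL/+ ASO1 against WT ASO Control, 97 in WT ASO1 against WT ASO Control, 1169 in Dnm2SL/+ ASO1 against WT ASO1 and 1072 for the interaction. Voom called 6 members with ASO1 in the mutants, and 244 genes and 2 members in Dnm2SL/+ ASO1 against WT ASO1. With only the groups compared in the fit, 215 genes were called in Dnm2SL/+ ASO1 against WT ASO Control and 4, with 1 member, against WT ASO1. Without a filter 302 were called in Dnm2SL/+ ASO1 against WT ASO1 and 274 for the interaction, and with library totals only 777 for the interaction. In these 2 settings, with a filter of 1 CPM in 4 libraries and with DESeq2, 1 member, Uchl1, passed the interaction. On mean CPM the shares of Uchl1, Katnal2, Fam171b and Slc15a5 moved to 78.8, 50.7, 82.8 and 15.7%.

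With 1 library left out, calls numbered 189 to 975 in Dnm2SL/+ ASO1 against WT ASO Control, with 5 to 8 members (5 without WT ASO Control 3 or 4, where Fam171b, Slc15a5 and Tiam1 did not pass). Tiam1 also missed without Dnm2SL/+ ASO1 1 or 2 or WT ASO Control 2 (adjusted p = 0.058, 0.087 and 0.065), and Slc15a5 without Dnm2SL/+ ASO1 2 or 4 (0.073 and 0.08). They numbered 1651 to 2755 with ASO1 in the mutants (2 to 5 members), 0 to 9 in WT ASO1 against WT ASO Control, 0 to 625 in Dnm2SL/+ ASO1 against WT ASO1 (0 to 6 members), 1377 to 3893 in Dnm2SL/+ ASO Control against WT ASO1 and 30 to 706 for the interaction (0 to 1 member). Directions turned in WT ASO1 against WT ASO Control for Shisal1 (-0.94 to 0.20), Uchl1 (-0.03 to 0.73), Slc15a5 (-0.08 to 0.35) and Tiam1 (-0.50 to 0.24), in the interaction for Shisal1 (-0.92 to 0.21) and with ASO1 in the mutants for Xylt1 (-0.20 to 0.17). The median share stayed between 25.2 and 35.8%. The pair of WT ASO1 libraries and the low counts of Shisal1 and Katnal2 in WT limit what could be detected.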
